A study of Drosophila melanogaster with 18 samples.

Results

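Gene expression was compared between 3 libraries of INT females and 3 libraries of F0 females of Drosophila melanogaster, 6 of the 18 RNA-seq libraries of the series, across all 16747 gene entries of the female count table. Every library was made from total RNA of whole flies aged 5 days. F0 flies are the founder population. Their labels name 10 strains: Canton-S, Harwich, BER_2, Wild_1A, DGRP-100 and Oregon-R-C, the white-eyed w1118, and 3 stocks with wing-hair markers, listed as flare3 (flr3), multiple wing hairs (mwh) and Oregon R flare3 (ORR, flr3). INT flies were taken at generation F12 and are labelled genetically heterogenous. The labels do not spell out INT, give no treatment, and do not say whether the founder strains were pooled in each F0 library. The series title links intelligence with longevity. Another group, NINT (also generation F12 and genetically heterogenous), was kept in the model so that the 9 female libraries shared 1 estimate of the spread, but the contrast described here is INT over F0.

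A whole female fly mixes thoracic flight muscle, other muscle, gut, fat body, nervous tissue and an ovary that makes up much of the abdomen. The indirect flight muscles use a few isoforms that other muscles lack, such as the actin Act88F, flightin and the troponin C TpnC4. In the ovary, follicle cells lay down the eggshell in order, first the vitelline membrane and then the chorion, whose genes are amplified in the follicle cells late in egg development. In bulk RNA from whole animals, fewer cells of a type and less RNA per cell cannot be told apart.

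The F0 female libraries held 50.2 to 58.3 M counts and the INT female libraries 31.6 to 35.4 M. Ribosomal RNA entries took 20.3% to 36.3% of the counts in F0 and 10.4% to 23.2% in INT, with Wilson intervals of 95% at most 0.0278 percentage points wide that cover counting error only. Ovary markers summed to 2258, 1893 and 1617 counts per 1e6 counts (CPM) in F0 females 1, 2 and 3 and to 2782, 2918 and 2549 CPM in INT females 1, 2 and 3, and testis markers stayed between 5.53 and 12.7 CPM in the 6 libraries. Levels are given as CPM after TMM scaling, on which the tested entries of F0 female 1 sum to 2012216 and those of the other 5 libraries to between 836690.0 and 1347005. The F0 libraries did not lie together. The root mean square log2 difference over the tested genes was 0.52 between F0 females 1 and 2 and 1.0 between F0 females 1 and 3, whereas it was 0.5 between F0 female 3 and INT female 2. F0 female 3 was therefore nearer to INT female 2 than to either other founder library, and INT female 3 was nearer to F0 female 2 (0.59) than INT female 1 was (0.86). Still, INT female 3 was nearer to INT female 2 (0.49) than to F0 female 2. INT female 1 lay at 0.39 from INT female 2 and at 0.63 from INT female 3. The labels do not say that replicates came from separate cultures, so the p-values measure the spread between these libraries, which may be technical.

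Of 13169 entries with enough counts to test, 279 (2.12%) were called between INT and F0 females at an adjusted p under 0.05 by edgeR's quasi-likelihood test. INT was higher for 157 of them (1.19% of the tested entries) and lower for 122 (0.926%). The median log2 fold change over all tested entries was -0.01. In all 279 called entries the 3 INT values lay on 1 side of the 3 F0 values, a separation that 2427 entries (18.4%) showed in all. An unadjusted p under 0.05 was reached by 2335 entries (17.7%), and DESeq2 called 949. The count hung on single libraries. It was 209 without F0 female 1, 39 without F0 female 2, 4310 (32.2% of those tested) without F0 female 3, 58 without INT female 1, 30 without INT female 2 and 265 without INT female 3. Of the 279, 26 stayed called in all 6 of these fits, among them Amy-p, Amy-d, Cp36, Cp7Fa, CG7542, CG17147, CG11034, Cyp4d8, fit and tipE. The calls also depended on the NINT females. With only the 6 compared libraries in the fit, 32 of the 279 stayed called.

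Muscle transcripts divided the libraries in another way than the labels. Act88F, the actin of the indirect flight muscles (chromosome 3R, 15439969 to 15442177, dm6), was at 4575, 4188 and 283 CPM in F0 females 1, 2 and 3 and at 19.2, 60.4 and 1709 CPM in INT females 1, 2 and 3. Flightin (fln), a myosin-binding protein of the same muscles, was at 1584, 1561 and 127 CPM in F0 and at 10.1, 16.7 and 627 CPM in INT. Both genes were thus high in F0 females 1 and 2 and in INT female 3, and low in the other 3 libraries, so that the groups overlapped. The same 3 libraries led for TpnC4, the flight-muscle troponin C, with 373, 470.4 and 50.9 CPM in F0 and 14.9, 28.7 and 228 CPM in INT. The difference between the groups did not pass the test for Act88F (log2 fold change -2.34 ± 1.48 (SE), adjusted p = 0.40), for fln (log2 fold change -2.32 ± 1.48 (SE), adjusted p = 0.40) or for TpnC4 (log2 fold change -1.72 ± 1.03 (SE), adjusted p = 0.38).

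**Figure D1:**
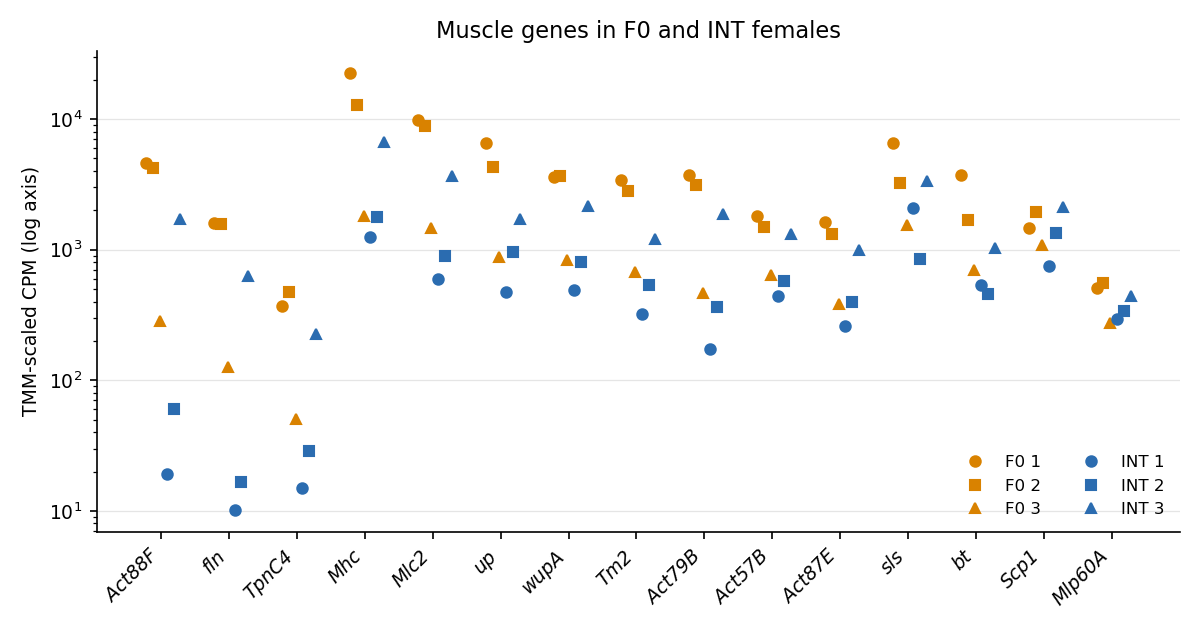
Levels of 15 muscle genes in each of the 6 libraries, in TMM-scaled CPM on a log axis; orange symbols are F0 females 1 (circle), 2 (square) and 3 (triangle), and blue symbols are INT females 1, 2 and 3 in the same order. For Act88F the circle and square of F0 and the triangle of INT lie at 1709 CPM or above and the other 3 symbols at 283 CPM or below.

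Genes of the thick filament followed the same order. Mhc, the muscle myosin heavy chain, was at 22603, 12663 and 1811 CPM in F0 and 1247, 1769 and 6626 CPM in INT (log2 fold change -1.94 ± 0.85 (SE), adjusted p = 0.28). Mlc2, the regulatory light chain, was at 9879, 8746 and 1451 CPM in F0 and 594, 889 and 3626 CPM in INT (log2 fold change -1.97 ± 0.79 (SE), adjusted p = 0.25). In both genes F0 female 3 stood beside INT females 1 and 2 and below INT female 3. The projectin gene bt, which encodes a giant elastic protein of the sarcomere, was at 3749, 1669.6 and 695 CPM in F0 and 531, 454 and 1019.7 CPM in INT (log2 fold change -1.61 ± 0.55 (SE), adjusted p = 0.20). The 8 thick filament genes together summed to 47096, 32201 and 6146 CPM in F0 and 4116, 5149 and 17025 CPM in INT. None of the 8 was called by edgeR, 4 had an unadjusted p under 0.05 and DESeq2 called 1, and their median log2 fold change was -1.73. Without F0 female 3, which leaves the 2 muscle-rich libraries as the founders, 5 of the 8 were called lower, beside 15.1% of all entries.

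Thin filament genes gave a like picture. The troponin T gene up was at 6526, 4267 and 872 CPM in F0 and 472, 957 and 1704 CPM in INT (log2 fold change -1.90 ± 0.68 (SE), adjusted p = 0.21), and the troponin I gene wupA at 3619.9, 3655 and 839 CPM in F0 and 491, 799 and 2149 CPM in INT (log2 fold change -1.24 ± 0.63 (SE), adjusted p = 0.32). Tropomyosin 2 (Tm2), which lies along the thin filament, was at 3418, 2805 and 672 CPM in F0 and 319, 538 and 1211 CPM in INT (log2 fold change -1.74 ± 0.62 (SE), adjusted p = 0.21). All 3 genes were highest in F0 females 1 and 2, and INT female 3 exceeded F0 female 3. The actins of other muscles moved over a smaller range than Act88F. Act57B had a log2 fold change of -0.75 (adjusted p = 0.41), Act87E of -1.01 (adjusted p = 0.36) and Act79B of -1.60 (adjusted p = 0.36). None of the 14 thin filament and troponin genes was called by edgeR, 4 had an unadjusted p under 0.05 and DESeq2 called 2. Their median was -1.16, and 8 of the 14 were called lower without F0 female 3, beside the same 15.1%.

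Scaffold and calcium genes had medians nearer 0 than the filament genes, -0.82 over 15 Z-disc and sarcomere scaffold genes and -0.66 over 11 genes of calcium handling, again with 0 called by edgeR or DESeq2 and with an unadjusted p under 0.05 in 2 and 3 genes. Without F0 female 3, 8 of the 15 and 5 of the 11 were called lower, beside 15.1% of all entries. The scaffold gene sls, which encodes the titin-like Sallimus, was at 6583, 3234 and 1537 CPM in F0 and 2089, 849.7 and 3346 CPM in INT (log2 fold change -0.85 ± 0.57 (SE), adjusted p = 0.42). Mlp60A, a muscle LIM protein gene of the same list, was at 503, 558 and 276 CPM in F0 and 296, 337 and 438 CPM in INT (log2 fold change -0.32 ± 0.28 (SE), adjusted p = 0.53). The calcium pump of the sarcoplasmic reticulum, listed as Ca-P60A (now SERCA), had a log2 fold change of -0.77 (adjusted p = 0.37), and the calcium-binding protein gene Scp1 one of -0.08 (adjusted p = 0.94). For Scp1 the highest of the 6 libraries was INT female 3 at 2125 CPM and the lowest INT female 1 at 745 CPM.

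The 3 muscle-rich libraries were weighed in 3 ways. Left out together, they leave 1 F0 and 2 INT libraries, and the lone F0 library is then assumed to vary like the other groups. The median of the 8 thick filament genes was -0.37 in that fit, that of the 14 thin filament genes -0.34 and that of the 9 flight muscle markers -0.41 (it was -1.35 with all 6 libraries). The most specific flight muscle genes kept a large difference, since Act88F and fln were also lower in INT females 1 and 2 than in F0 female 3: their log2 fold changes were -2.81 (adjusted p = 0.098) and -3.22 (adjusted p = 0.068). Among the muscle-rich libraries alone, INT female 3 over F0 females 1 and 2, the medians were -1.34 for thick filament genes, -0.78 for thin filament genes and -0.89 for flight muscle markers. INT female 3 has no replicate in that contrast, and the spread came from other groups of the female fit, NINT among them. These medians rest on the TMM scaling. In plain CPM the flight muscle markers summed to 7030 and 9590 in F0 females 1 and 2 and to 8680 in INT female 3. They took 1.1%, 1.26% and 1.02% of the counts outside ribosomal RNA. All muscle lists together took 9.0%, 8.62% and 6.63%. With the mean log2 level of the flight muscle markers as a covariate, the medians of thick filament genes, thin filament genes and flight muscle markers were -0.05, 0.08 and 0.01. The last is small by construction, because these genes supplied the covariate. The values -0.05 and 0.08 are partly so. The thick filament genes fln and Mf and the thin filament genes Act88F and TpnC4 are among those markers.

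**Figure D2:**
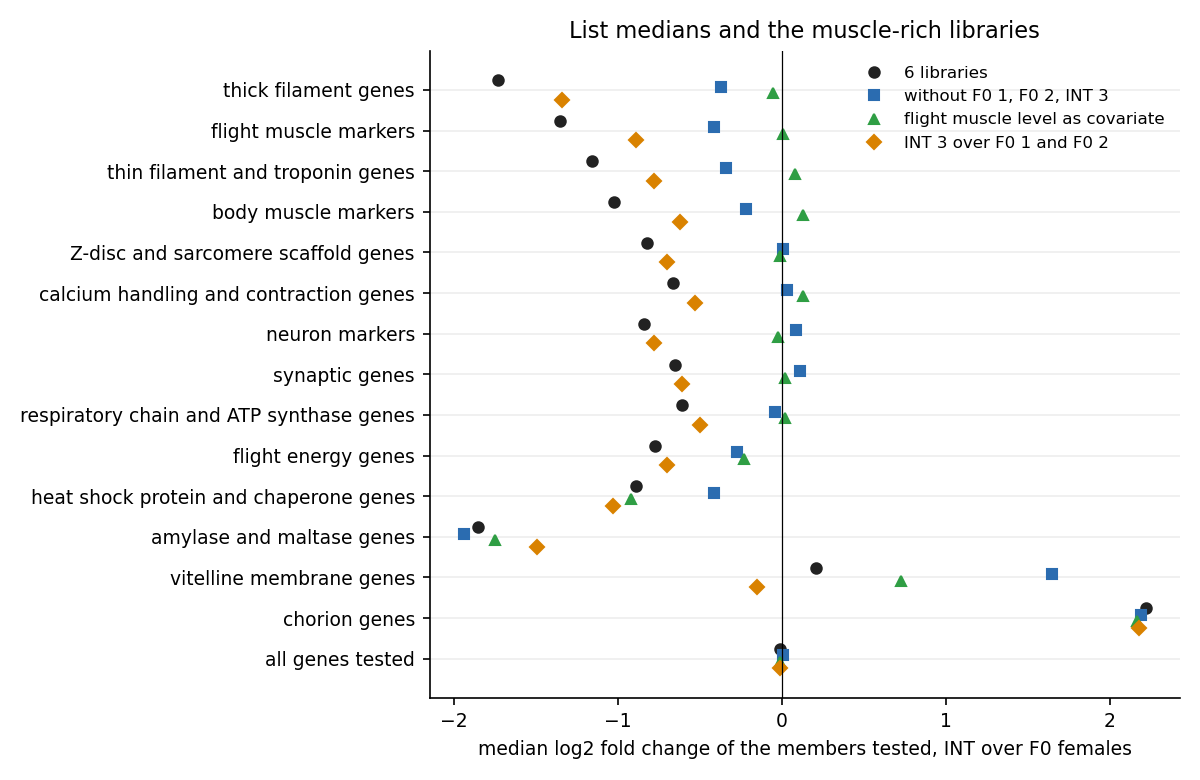
Median log2 fold change of INT over F0 females (horizontal axis) for 14 gene lists and for all tested entries, with all 6 libraries (black circles), without the 3 muscle-rich libraries (blue squares), with the flight muscle level as a covariate (green triangles) and within the 3 muscle-rich libraries (orange diamonds). Muscle, nerve and respiratory lists move towards 0 in the blue and green symbols, whereas the chorion list stays between 2.17 and 2.22 and the amylase and maltase list between -1.94 and -1.49.

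Transcripts of other tissues were high in the same 3 libraries. With all 6 libraries, 0.926% of all entries were called lower in INT. The 10 neuron markers summed to 1109, 647 and 338 CPM in F0 and to 368, 362 and 536 CPM in INT, and all 10 had a negative log2 fold change, with a median of -0.84. None was called by edgeR or DESeq2, and 4 had an unadjusted p under 0.05. Their median was 0.09 without the muscle-rich libraries and -0.02 with the covariate. Of 30 synaptic genes 1 was called, comt, the NSF ATPase of vesicle fusion, at 35.5, 38.8 and 36.1 CPM in F0 and 19.9, 21.1 and 23.4 CPM in INT (log2 fold change -0.78 ± 0.13 (SE), adjusted p = 0.019). Its groups did not overlap, and its log2 fold change was -0.80 without the muscle-rich libraries (adjusted p = 0.050). The 70 genes of the respiratory chain and ATP synthase, abundant in flight muscle, summed to 38528, 40642 and 16443 CPM in F0 and 15671, 16546 and 27458 CPM in INT. In 69 of the 70 the log2 fold change was below 0 and the median was -0.61, but 1 was called, CG15434 (now ND-B8, a complex I subunit; log2 fold change -1.47 ± 0.28 (SE), adjusted p = 0.033). The median of these 70 was -0.04 without the muscle-rich libraries. Among 19 genes of flight energy metabolism Mdh1, the cytosolic malate dehydrogenase, fell, from 525, 603 and 514 CPM in F0 to 341, 349 and 342 CPM in INT (log2 fold change -0.67 ± 0.13 (SE), adjusted p = 0.034). These counts turned on F0 female 3. Without it, 63 of the 70 respiratory genes, 17 of the 19 flight energy genes, 17 of the 30 synaptic genes and 7 of the 10 neuron markers were called lower, beside 15.1% of all entries.

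Some cuticle and larval genes varied widely between libraries. The 125 listed cuticle protein genes summed to 3874, 3263 and 450.2 CPM in F0 and 285, 333 and 1208 CPM in INT. Acp65Aa, an adult cuticle protein made around eclosion, was at 278, 281 and 16.8 CPM in F0 and 1.19, 6.19 and 80.7 CPM in INT (log2 fold change -2.71 ± 1.36 (SE), adjusted p = 0.32). Fbp1, a storage protein receptor of the larval fat body, was at 51.6, 47.9 and 0.0646 CPM in F0 and 0, 0.0507 and 0.603 CPM in INT (log2 fold change -7.27 ± 1.86 (SE), adjusted p = 0.089), and the larval fat body gene Fbp2 was at 18.8, 25.1 and 0.258 CPM in F0 and 0.183, 0.0254 and 0.693 CPM in INT (log2 fold change -5.63 ± 1.45 (SE), adjusted p = 0.091). For both genes F0 females 1 and 2 lay far above the other 4 libraries. The 9 larval serum and storage genes had a median log2 fold change of -1.43, which was 0.36 without the muscle-rich libraries. All libraries carry the same age label of 5 days. Among 83 tested cuticle genes 1 was called higher, beside 1.19% of all entries. Cpr72Ec, a cuticle protein of the eye lens, rose from 3.45, 2.57 and 3.14 CPM in F0 to 9.16, 11 and 8.20 CPM in INT (log2 fold change 1.63 ± 0.23 (SE), adjusted p = 0.014).

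The chorion genes gave the clearest difference between the groups. Cp36, a chorion protein gene of the X-linked cluster (X, 8470888 to 8483174 for its 5 genes), was at 79.7, 117 and 92.3 CPM in F0 and 359, 539.7 and 447 CPM in INT (log2 fold change 2.22 ± 0.26 (SE), adjusted p = 0.0070). Cp7Fa of the same cluster was at 3.31, 7.11 and 6.10 CPM in F0 and 33.2, 40.2 and 35.3 CPM in INT (log2 fold change 2.71 ± 0.30 (SE), adjusted p = 0.0062). In both genes the lowest INT library lay well above the highest F0 library. The F0 libraries ran from 79.7 to 117 CPM for Cp36 and from 3.31 to 7.11 CPM for Cp7Fa. Cp16, from the cluster on chromosome arm 3L (8726791 to 8732599 for 4 genes), was at 9.59, 27.6 and 21 CPM in F0 and 198, 224 and 137 CPM in INT (log2 fold change 3.26 ± 0.44 (SE), adjusted p = 0.014). Its neighbour Cp18 was at 23.3, 70.6 and 11.3 CPM in F0 and 442, 477 and 253 CPM in INT (log2 fold change 3.48 ± 0.67 (SE), adjusted p = 0.034), and Cp19 at 31.1, 65.3 and 89 CPM in F0 and 386, 417 and 276 CPM in INT (log2 fold change 2.54 ± 0.43 (SE), adjusted p = 0.019). F0 values of the 3L genes were scattered, but no F0 library reached any INT library.

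Of the 13 chorion genes 11 were called higher in INT, beside 1.19% of all entries, and in all 13 the groups did not overlap, beside 10.1% of entries with INT higher. The other two were Cp15, at 32.8, 196 and 282 CPM in F0 and 837, 894 and 420.3 CPM in INT (log2 fold change 2.08 ± 0.68 (SE), adjusted p = 0.19), and CG13992. The median log2 fold change of the 13 was 2.22, and it was 2.19 without the 3 muscle-rich libraries, 2.18 within them and 2.17 with the covariate. The number called was 13 without F0 female 3, where 17.1% of all entries were called higher, 6 without F0 female 2 or INT female 1 and 2 without INT female 2. Cp36 and Cp7Fa were called in each of the 6 fits that left out 1 library. The counting could not separate nearby genes of a cluster if reads overlapped both, since nothing used here states the strand setting.

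**Figure D3:**
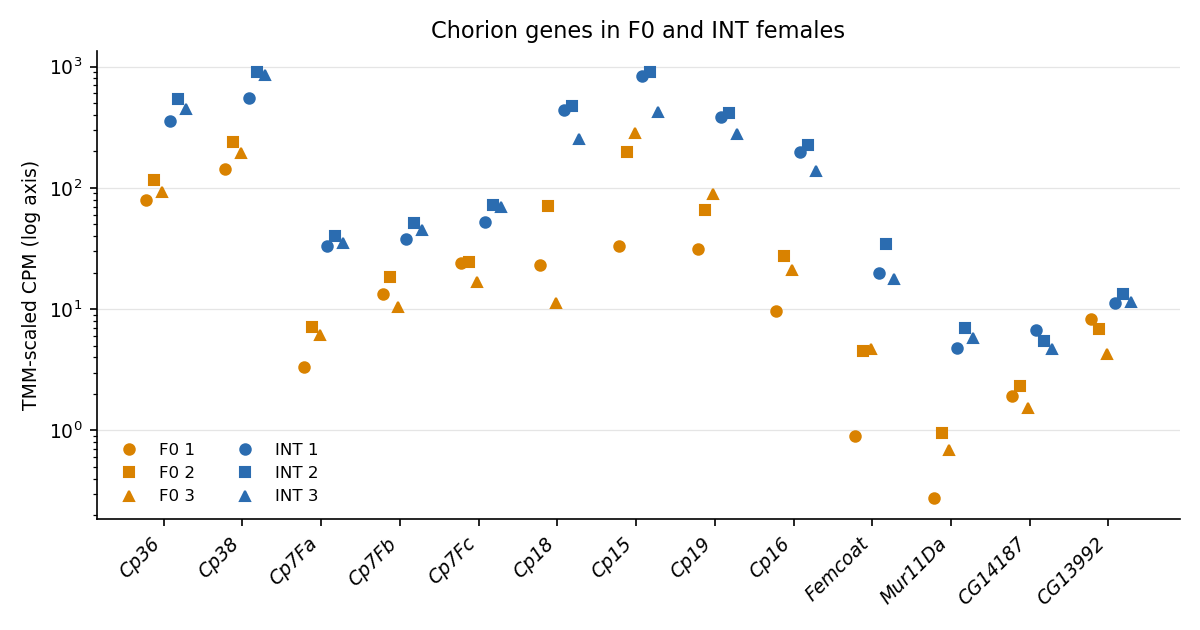
Levels of the 13 listed chorion genes in each of the 6 libraries, in TMM-scaled CPM on a log axis, F0 females in orange and INT females in blue with circle, square and triangle for replicates 1, 2 and 3. In each gene the 3 blue symbols lie above the 3 orange symbols.

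Vitelline membrane and yolk protein genes did not pass the test. Vm26Aa, a vitelline membrane protein gene, was at 1579, 1022 and 398 CPM in F0 and 1269, 1189 and 954 CPM in INT (log2 fold change 0.19 ± 0.40 (SE), adjusted p = 0.81). F0 female 1 was the highest of the 6 libraries and F0 female 3 the lowest, so that INT lay between the founder libraries. None of the 12 vitelline membrane genes was called by edgeR or DESeq2, 1 had an unadjusted p under 0.05, and their median was 0.21. Without the muscle-rich libraries, which leaves F0 female 3 as the founder, 7 of the 12 were called higher, beside 0.615% of all entries, and the median was 1.65, while within the muscle-rich libraries it was -0.15. fs(1)M3, whose product joins the vitelline membrane, was at 75.7, 78.5 and 82.8 CPM in F0 and 105, 100.194 and 98.1 CPM in INT (log2 fold change 0.36 ± 0.12 (SE), adjusted p = 0.18). The yolk protein gene Yp1 was at 3338, 3659 and 2102 CPM in F0 and 5457, 5465 and 5344 CPM in INT (log2 fold change 0.84 ± 0.23 (SE), adjusted p = 0.11), Yp2 had a log2 fold change of 0.53 (adjusted p = 0.31) and Yp3 of 0.63 (adjusted p = 0.26). All 3 yolk protein genes were higher in each INT library than in any F0 library, beside 10.1% of all entries, and none passed edgeR's test. Of the 4 genes of the list, which adds the yolk receptor gene yl, 2 had an unadjusted p under 0.05 and DESeq2 called 1. The median log2 fold change of the 4 was 0.58, with 1.28 without the muscle-rich libraries and 0.36 within them. Among 37 maternal and germline genes 1 was called higher, beside 1.19% of all entries. This was aub, which encodes a Piwi protein of the germline. It rose from 30.0, 31.6 and 29.3 CPM in F0 to 43.8, 44.2 and 45.3 CPM in INT (log2 fold change 0.55 ± 0.12 (SE), adjusted p = 0.049). Without F0 female 3, 17 of the 37 were called higher, beside 17.1% of all entries. Among 13 pigment and sclerotization genes 1 was called higher with all 6 libraries, beside 1.19% of all entries. This was yellow-g2, a gene of the yellow family that acts in eggshell hardening. It rose from 13.1, 15.6 and 10.8 CPM in F0 to 22, 60.3 and 47.8 CPM in INT (log2 fold change 1.72 ± 0.34 (SE), adjusted p = 0.039).

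Starch-digesting enzymes of the gut were lower in INT females. Amy-p, one of the paired amylase genes (2R, 17118636 to 17126369 for both), was at 1656, 1872 and 2143 CPM in F0 and 566, 563 and 636 CPM in INT (log2 fold change -1.68 ± 0.19 (SE), adjusted p = 0.0062). The other copy, Amy-d, was at 798, 871 and 959.6 CPM in F0 and 252, 245 and 271 CPM in INT (log2 fold change -1.78 ± 0.17 (SE), adjusted p = 0.0038). The 3 F0 libraries were about alike in both and the 3 INT libraries were about alike, with a wide gap between; the copies are near-identical and may share reads. Mal-A4, a maltase gene that cleaves maltose to glucose, was at 45.2, 52.5 and 28.7 CPM in F0 and 2.01, 1.90 and 8.05 CPM in INT (log2 fold change -3.40 ± 0.57 (SE), adjusted p = 0.019). Mal-A2 was at 20.2, 27 and 18.9 CPM in F0 and 5.60, 5.10 and 8.32 CPM in INT (log2 fold change -1.80 ± 0.27 (SE), adjusted p = 0.017). In both of these maltase genes INT female 3 was the highest INT library but stayed below every F0 library.

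Of 14 amylase and maltase genes 8 fell (Amy-p, Amy-d, Amyrel, Mal-A1, Mal-A2, Mal-A3, Mal-A4 and Mal-A6), beside 0.926% of all entries, and in 10 the INT values lay below all F0 values, beside 8.34% of entries. The median log2 fold change was -1.85, with -1.94 without the muscle-rich libraries, -1.49 within them and -1.75 with the covariate. Mal-A5, in the same cluster (2R, 8449664 to 8473961 for 8 genes), did not pass the test (log2 fold change 0.12, adjusted p = 0.67), and neither did Mal-B2 (log2 fold change -0.24, adjusted p = 0.43). Amy-p and Amy-d were called whichever library was left out, whereas the number called was 2 without F0 female 2, INT female 1 or INT female 2, 5 without F0 female 1 and 11 without F0 female 3, where 15.1% of all entries were called lower.

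Other digestive genes moved in both directions, beside 1.19% of all entries called higher and 0.926% called lower. CG7542 (synonym SP71, a serine protease; 3L, 17549826 to 17550658) had the largest rise among the entries with at least 5 CPM in a group, from 0.586, 0.265 and 0.495 CPM in F0 to 40.4, 46.7 and 47.5 CPM in INT (log2 fold change 6.65 ± 0.32 (SE), adjusted p = 7.6e-05). It stayed called without any 1 library, with log2 fold changes from 6.38 to 6.85. The protease gene Ser12 had 0 counts in the 3 F0 libraries and 106, 117 and 260 counts in INT, equal to 3.23, 2.97 and 7.84 CPM. Set against a floor of 3 counts over the F0 group, its INT mean was at least 176-fold higher; Ser12 lies outside the naming rule and was chosen after its values were seen. Of 32 digestive protease genes 1 was called higher (Ser12) and 2 lower, Ser6 (log2 fold change -1.01 ± 0.17 (SE), adjusted p = 0.019) and lambdaTry (log2 fold change -0.73 ± 0.14 (SE), adjusted p = 0.039), and the median was -0.15. That median changed sign with the libraries used, at -0.55 without the muscle-rich libraries and 0.43 within them.

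Some lipase and sterol genes changed as well. The list counts here stand beside 1.19% of all entries called higher and 0.926% called lower. CG6277 (synonym DmelL2, a lipase; 3R, 27022071 to 27023217) was at 55.4, 101 and 168 CPM in F0 and 5.21, 3.30 and 6.27 CPM in INT (log2 fold change -4.46 ± 0.53 (SE), adjusted p = 0.0070), and its neighbour CG6271 at 2.41, 4.48 and 8.81 CPM in F0 and 0.396, 0.304 and 0.301 CPM in INT (log2 fold change -3.97 ± 0.65 (SE), adjusted p = 0.019). The founder libraries differed from each other in both genes, and every INT library lay far below the lowest of them. Among 10 Niemann-Pick type sterol transport genes 1 fell, Npc2d (20.0, 31.7 and 31 CPM in F0 and 8.65, 8.45 and 8.29 CPM in INT; log2 fold change -1.70 ± 0.23 (SE), adjusted p = 0.013), and 1 rose, Npc2g (53.5, 54 and 39.6 CPM in F0 and 99.7, 90.3 and 85.7 CPM in INT; log2 fold change 0.91 ± 0.15 (SE), adjusted p = 0.019). Among 29 lipid genes eloF, a fatty acid elongase that acts in female hydrocarbon synthesis, rose from 13.4, 19.8 and 28.3 CPM to 61.4, 63.2 and 52.3 CPM (log2 fold change 1.52 ± 0.25 (SE), adjusted p = 0.019), and 1 other member was called lower, the lipase gene Lip3.

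**Figure D4:**
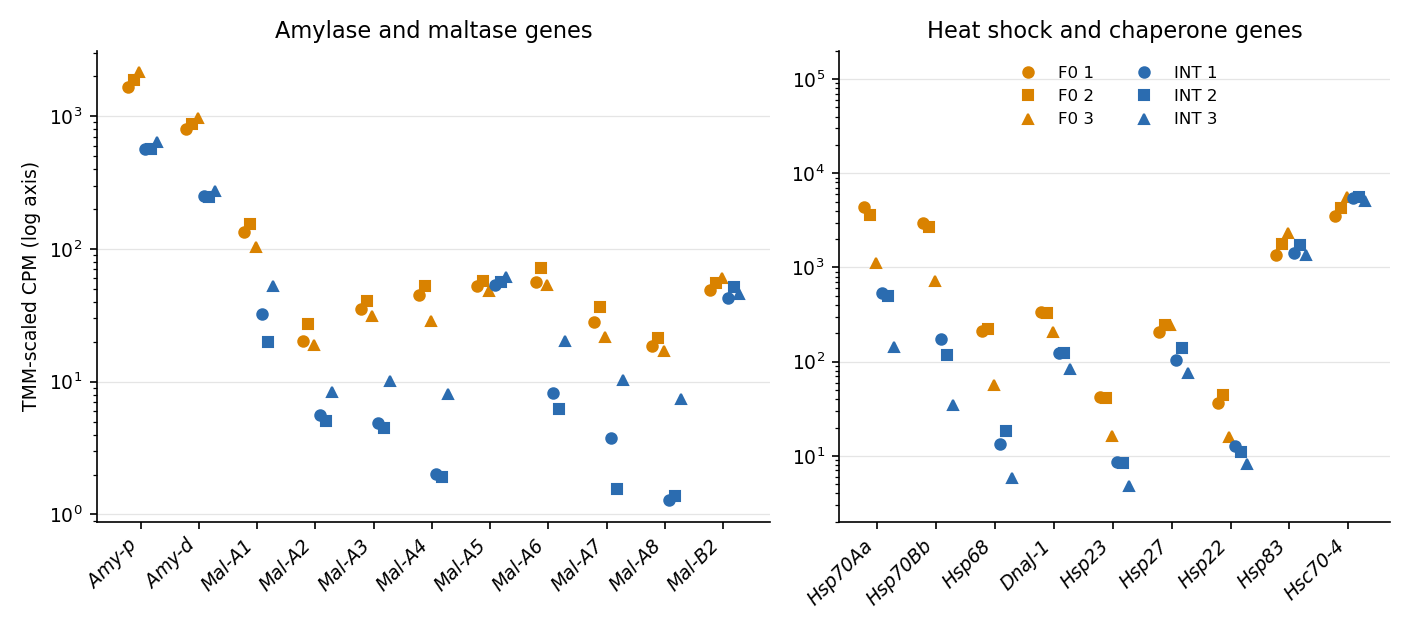
Levels of 11 amylase and maltase genes (left) and 9 heat shock and chaperone genes (right) in each of the 6 libraries, in TMM-scaled CPM on log axes, F0 females in orange and INT females in blue with circle, square and triangle for replicates 1, 2 and 3. INT lies below F0 for Amy-p, Amy-d and most Mal-A genes, with Mal-A5 and Mal-B2 level, and for Hsp70Bb and Hsp68 F0 female 3 lies between the other founders and INT.

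Several inducible heat shock genes were lower in INT, with founder libraries that differed among themselves. Hsp70Bb, a copy of the main inducible chaperone (the 4 Hsp70B copies span 3R, 12465453 to 12511461), was at 2938, 2719 and 727 CPM in F0 and 174, 119 and 35 CPM in INT (log2 fold change -4.28 ± 0.70 (SE), adjusted p = 0.019). Hsp68, a related inducible chaperone, was at 213, 224 and 56 CPM in F0 and 13.5, 18.3 and 5.88 CPM in INT (log2 fold change -3.71 ± 0.60 (SE), adjusted p = 0.019). In both genes F0 female 3 was far below the other founder libraries but above every INT library, and INT female 3 was the lowest of all. The co-chaperone gene DnaJ-1 was at 339, 325 and 208 CPM in F0 and 123, 123 and 82.8 CPM in INT (log2 fold change -1.41 ± 0.23 (SE), adjusted p = 0.019). Of 31 heat shock and chaperone genes 8 fell, the 4 Hsp70B copies, Hsp68, DnaJ-1, Hsp23 and Hsp27, beside 0.926% of all entries, and 0 rose, with 2 higher at an unadjusted p under 0.05. The Hsp70B copies are near-identical and may share reads, so they are not taken as 4 independent measurements. Other inducible members did not pass the test, Hsp70Aa and Hsp70Ab, Hsp22 and Hsp67Bc with separate groups and Hsp26 with overlapping ones. The constitutive members Hsc70-4 (log2 fold change 0.27, adjusted p = 0.47) and Hsp83 (log2 fold change -0.28, adjusted p = 0.46) did not pass the test. Without the muscle-rich libraries the log2 fold change of Hsp70Bb was -2.30 (adjusted p = 0.026) and that of Hsp68 -1.80 (adjusted p = 0.068), and within them they were -6.34 and -5.22. The list had 0 calls without F0 female 2, INT female 1 or INT female 2 and 18 lower without F0 female 3, beside 15.1% of all entries.

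The long noncoding RNA of the alphagamma element, which is transcribed from the heat shock locus that holds the Hsp70B genes, was at 289.9, 426 and 129 CPM in F0 and 29.7, 8.42 and 9.74 CPM in INT (log2 fold change -4.14 ± 0.59 (SE), adjusted p = 0.014), again with F0 female 3 the lowest founder. CG17147 had the largest fall among the called entries with at least 5 CPM in a group, from 18.5, 21.9 and 20.0 CPM in F0 to 0.396, 0.457 and 1.30 CPM in INT (log2 fold change -4.82 ± 0.44 (SE), adjusted p = 0.0038). It was called without any 1 library. The remaining gene of the 10 largest falls was CG13091 (now Sgp), at 184, 241 and 40.1 CPM in F0 and 16.6, 7.08 and 9.74 CPM in INT (log2 fold change -3.80 ± 0.63 (SE), adjusted p = 0.019).

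The 10 largest rises held CG7542, chorion genes and genes known mostly by an identifier. CG4757 went from 0.586, 0.239 and 0.388 CPM in F0 to 8.89, 10.9 and 4.70 CPM in INT (log2 fold change 4.35 ± 0.60 (SE), adjusted p = 0.014) and lcs from 7.11, 19.9 and 60.7 CPM to 399, 355 and 284 CPM (log2 fold change 3.56 ± 0.65 (SE), adjusted p = 0.027). CG11034 went from 3.45, 2.49 and 1.87 CPM to 26.3, 29.2 and 25.4 CPM (log2 fold change 3.38 ± 0.23 (SE), adjusted p = 0.00094). The founder libraries lay close together for CG11034 and far apart for lcs, where F0 female 3 was the highest of them and still below every INT library. CG10725 (3.30), CG13609 (3.28), CG8539 (3.21) and Mur11Da (3.17), a mucin-related gene of the chorion list, all log2 fold changes, were the rest, with adjusted p from 0.0038 to 0.019.

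Immune effectors had mostly lower values in INT. Of 35 tested antimicrobial peptide and bomanin genes 3 were called, all lower, beside 0.926% of all entries. CG18107 (now BomS4), a bomanin, a short peptide of the Toll response, was at 23.1, 31.5 and 23.2 CPM in F0 and 9.04, 9.11 and 9.62 CPM in INT (log2 fold change -1.49 ± 0.16 (SE), adjusted p = 0.0062), CG15068 (now BomS6) had -1.19 (adjusted p = 0.028) and Drsl4, a drosomycin-like gene, -1.19 (adjusted p = 0.049) as log2 fold change. The median over the 35 was -0.83, and 29 lay below 0. Beside them PGRP-SC2, a peptidoglycan amidase of the gut, fell from 136, 164 and 203 CPM to 45.4, 56 and 81.7 CPM (log2 fold change -1.46 ± 0.23 (SE), adjusted p = 0.019), 1 of 49 recognition and melanization genes called, and LysX, a lysozyme, from 7.45, 8.06 and 8.25 CPM to 1.95, 1.40 and 1.72 CPM (log2 fold change -2.23 ± 0.38 (SE), adjusted p = 0.021), 1 of 6 lysozymes called.

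Detoxification genes were called in both directions. Of 81 cytochrome P450 genes 8 fell, beside 0.926% of all entries, and 3 rose (Cyp4d14, Cyp4d21 and Cyp6a8), beside 1.19%, with a median of -0.26. Cyp4d8 was at 9.31, 10.2 and 8.12 CPM in F0 and 2.50, 2.69 and 2.74 CPM in INT (log2 fold change -1.80 ± 0.20 (SE), adjusted p = 0.0062), and Cyp28d1 at 31, 41.8 and 37.7 CPM in F0 and 13.4, 16 and 18.1 CPM in INT (log2 fold change -1.22 ± 0.18 (SE), adjusted p = 0.015). Cyp6a14 had a log2 fold change of -1.39 (adjusted p = 0.019). The number of P450 genes called lower was 1 without F0 female 2, INT female 1 or INT female 2, 5 without F0 female 1, 4 without INT female 3 and 19 without F0 female 3, where 15.1% of all entries were called lower. Of 34 glutathione transferase genes GstE3 fell (log2 fold change -1.15 ± 0.22 (SE), adjusted p = 0.033), beside 0.926% of all entries. GstE1 (log2 fold change 0.86 ± 0.16 (SE), adjusted p = 0.034) and GstD3 (log2 fold change 0.94 ± 0.19 (SE), adjusted p = 0.045) rose, beside 1.19%. Most of the family leaned the other way, with 25 of the 34 below 0 and a median of -0.35. At an unadjusted p under 0.05, 12 were lower and 2 higher. MtnB, a metallothionein that binds metals, fell from 21.7, 35.4 and 10.4 CPM to 4.57, 4.57 and 6.93 CPM (log2 fold change -2.07 ± 0.43 (SE), adjusted p = 0.048). It was the only 1 of 5 metallothionein genes called, and the other 4 lay above 0. The median of the 5 was 0.81. Their sum was 239, 394 and 406 CPM in F0 and 723, 503 and 499 CPM in INT. The MtnB call held in 1 of the 6 fits that left out 1 library.

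Odorant-binding proteins, which carry small hydrophobic molecules in antennae and other tissues, gave 3 rises among 33 tested genes, beside 1.19% of all entries, and 0 falls. The family as a whole did not rise: 18 of the 33 lay below 0 and the median was -0.03. At an unadjusted p under 0.05, 5 were higher and 6 lower, and DESeq2 called 4 in each direction. The number called higher was 0 without F0 female 2 or INT female 2. Obp19c was at 6.04, 6.68 and 4.80 CPM in F0 and 19.1, 23.4 and 19.6 CPM in INT (log2 fold change 1.83 ± 0.24 (SE), adjusted p = 0.012), Obp56e at 14.1, 18.8 and 13.8 CPM and 50.3, 48.7 and 31 CPM (log2 fold change 1.48 ± 0.26 (SE), adjusted p = 0.023) and Obp99a at 11, 16 and 18.1 CPM and 44.5, 46.5 and 27 CPM (log2 fold change 1.38 ± 0.26 (SE), adjusted p = 0.030). Among 10 eye markers the arrestin gene Arr1, which ends the rhodopsin signal, rose from 85.7, 113 and 126 CPM to 202, 197 and 183 CPM (log2 fold change 0.84 ± 0.17 (SE), adjusted p = 0.039). Its partner Arr2 was higher in each INT library without passing the test (log2 fold change 0.63 ± 0.16 (SE), adjusted p = 0.092). Thor, the 4E-BP translation inhibitor repressed by insulin and TOR signalling, rose from 71.1, 78.5 and 88 CPM to 143, 163 and 153 CPM (log2 fold change 0.95 ± 0.15 (SE), adjusted p = 0.019), 1 of 25 genes of that list.

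Histone genes need separate counting. All 23 copies of His3, the core histone H3 gene (2L, 21420129 to 21500448), were called higher in INT, beside 1.19% of all entries. The copies had only 4 distinct sets of counts, so the 279 calls hold fewer independent genes. Summed over the copies, His3 was at 253, 340.1 and 755 CPM in F0 and 3802, 2288 and 2000.2 CPM in INT. None of the 88 copies of His1, His2A, His2B and His4 was called by edgeR. Over all 111 histone copies 26 had an unadjusted p under 0.05, and DESeq2 called 23. Without F0 female 3 all 111 copies were called higher, beside 17.1% of all entries. His2A was at 3364, 7007 and 16508 CPM in F0 and 15565, 11911 and 8241 CPM in INT, so that F0 female 3 exceeded every INT library. The His3 calls were lost without F0 female 2, INT female 1 or INT female 2.

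The 279 calls were set against the muscle difference as a whole. Without the 3 muscle-rich libraries 166 of 13663 entries were called (1.21%), 93 of them among the 279, and within the 3 muscle-rich libraries 228 (1.73%) were called, 118 of them among the 279. Both comparisons set a group of 1 library, F0 female 3 or INT female 3, against others, with the spread taken from groups with more libraries. With the flight muscle covariate 129 (0.98%) were called, 127 of them among the 279. Of 66 entries of the muscle lists and markers 1 was among the 279 calls, Mdh1, beside 2.12% of all entries. At an unadjusted p under 0.05, 26 of the 66 were lower in INT and 0 higher, beside 17.7% of all entries in either direction, and DESeq2 called 8.

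**Figure D5:**
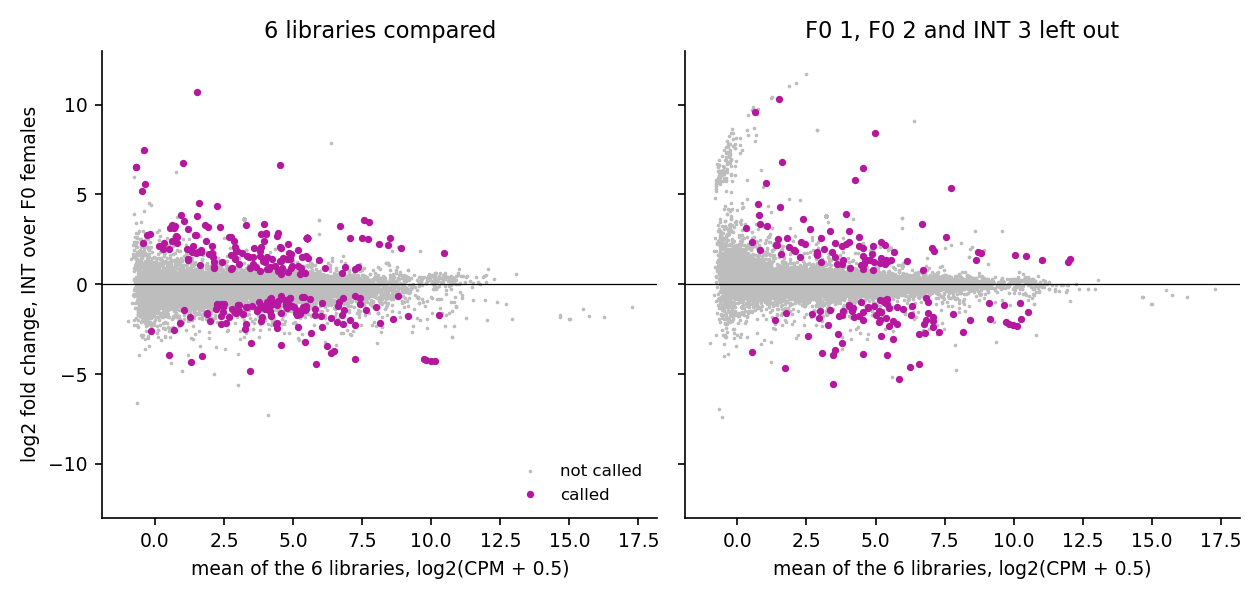
Log2 fold change of INT over F0 females against the mean level over the 6 libraries, as log2(CPM + 0.5), for each tested entry, with all 6 libraries (left) and without F0 females 1 and 2 and INT female 3 (right); called entries are purple. Of 13169 entries 279 are called on the left and 166 on the right, and calls lie on both sides of 0 in both panels.

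The same contrast was set against males in a fit of the 18 libraries, in which 85 of 15304 entries (0.555%) had a different log2 fold change of INT over F0 in the 2 sexes. The female value was higher for 38 (0.248%) and lower for 47 (0.307%). The count was 28 without the muscle-rich female libraries, 19 without F0 male 2 and 2462 without F0 female 3. Male levels below were scaled over all 18 libraries. CG13609 was at 0.207, 0.504 and 0.926 CPM in F0 females and 5.42, 5.73 and 5.28 CPM in INT females, and at 1.96, 2.84 and 2.52 CPM in F0 males and 2.23, 1.85 and 1.08 CPM in INT males. Its log2 fold change was 3.29 in females and -0.51 in males, and the difference was 3.79 ± 0.54 (SE, adjusted p = 0.0094). fit, a fat body peptide gene induced by feeding in females, was at 2.66, 4.72 and 4.22 CPM in F0 females and 34.5, 30.6 and 17.7 CPM in INT females, and below 2 CPM in each of these male libraries. Its log2 fold change was 2.84 in females and -1.24 in males, and the difference was 4.08 ± 0.60 (SE, adjusted p = 0.0094). F0 males 1 and 2 held yolk protein transcripts at 1180 and 563 CPM, and the part of these libraries in the male value of fit was not tested. The other rises by rule were CG32243 (2.12), CG43965 (3.20) and CG31205 (1.87), given as the female minus the male log2 fold change.

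Among entries with a lower female value, CG31148 (now Gba1a, a glucocerebrosidase) was at 18.8, 22.9 and 15.9 CPM in F0 females and 0.944, 1.07 and 4.04 CPM in INT females, against 13, 9.72 and 12.6 CPM in F0 males and 22.4, 27.6 and 21.6 CPM in INT males. Its log2 fold change was -3.25 in females and 1.02 in males, and the difference was -4.27 ± 0.62 (SE, adjusted p = 0.0094). CG43679 was at 55.7, 75.5 and 42.3 CPM in F0 females and 14.7, 16.8 and 22.9 CPM in INT females, and at 54.6, 36.7 and 41.6 CPM in F0 males and 108, 136 and 100.005 CPM in INT males, so the groups separated in opposite directions in the 2 sexes. The sodium channel subunit gene tipE fell in females from 17.3, 13.1 and 14.9 CPM to 3.38, 2.66 and 3.86 CPM and was at 7.50, 7.96 and 10.2 CPM in F0 males and 8.32, 6.86 and 5.95 CPM in INT males. Its log2 fold change was -2.19 in females and -0.28 in males, and the difference was -1.91 ± 0.28 (SE, adjusted p = 0.0094). CDase, the neutral ceramidase, and CG9672 were the other two, with differences of -1.64 and -1.89.

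Some gut genes differed between the sexes too. Of 14 amylase and maltase genes 3 had a lower fold change in females, beside 0.307% of all entries, as had 1 of 6 lysozyme genes. Among the 3, Mal-A4, at 49.5, 48.7 and 60.1 CPM in F0 males and 39.4, 51.8 and 56.5 CPM in INT males, had a log2 fold change of -3.40 in females and -0.10 in males, and the difference was -3.30 ± 0.60 (SE, adjusted p = 0.024). The median over the 14 was 0.01 in males. In males INT and F0 differed in 244 of 15304 entries (1.59%). CG7542 was among them and rose in both sexes, with 4.10, 5.12 and 6.09 CPM in F0 males and 61.6, 101 and 50.8 CPM in INT males, and its log2 fold change was 6.65 in females and 3.80 in males, and the difference was 2.86 ± 0.44 (SE, adjusted p = 0.010). Eggshell genes gave differences as well, such as 6.77 for Cp7Fa, whose log2 fold change in the fit of the female libraries was 2.71. The yolk protein genes summed to 1180.0, 563 and 6.8 CPM in F0 males 1, 2 and 3. In INT males they summed to 11.3, 14.7 and 13.6 CPM. Thus 2 founder male libraries held female transcripts, whose part in these differences was not tested.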

How the data were processed

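The data were raw read counts per gene that the authors deposited in 1 table per sex, per the file headers. DESeq2 and the build dm6 are named, without versions, in the submitters' processing notes. Aligner, counter and strand setting were not given in the sources used here. Of 16747 entries, 16642 found their gene in the BDGP6 annotation and 105 did not. There were 109 ribosomal RNA entries, 0 entries of the mitochondrial genome and 0 columns without a sample.

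The 9 female libraries were fitted with 1 coefficient per group in edgeR 4.0.16 (R 4.3.3, limma 3.58.1), with TMM scaling, genes kept by filterByExpr (minimum count 10, minimum total count 15) and the two-sided quasi-likelihood test. A call needed an adjusted p (Benjamini-Hochberg, over all entries tested) under 0.05. The sex difference was the interaction in a fit of all 18 libraries. Levels are TMM-scaled counts per 1e6 (CPM). Female levels were scaled over the 9 female libraries and male levels over all 18. Yolk protein and chorion sums in males are plain CPM. Fold changes are INT over F0 on the log2 scale as given by the fit, with edgeR's default prior count. A prior count of 2 was used only for log2 levels, such as those behind the flight muscle covariate. A group at 0 counts was set to a floor of 3 counts over the group, which covers counting error only. The fits were tested on simulated data. Alternatives were DESeq2 1.42.0, RLE scaling, other filters, leaving out ribosomal RNA, the replicate block, fewer libraries and a muscle covariate. In another, muscle genes were left out of the library sizes and scaling but still tested. Python 3.11.15 with pandas 2.3.3, scipy 1.17.1 and matplotlib 3.10.9 made the tables and figures.

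The gene lists, the 3 libraries called muscle-rich and the comparisons were chosen with earlier results of these data known. Named genes are the 10 largest rises and falls among calls without overlap of the groups that reach 5 CPM on average in F0 or INT, the 3 smallest p of each list at that level, preset muscle and yolk protein genes, and the 5 smallest p in each direction for the sex difference. Arg, planned as a flight muscle marker, was left out because its symbol could not be matched to 1 gene with certainty. List members named outside this rule were chosen after their values were seen.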

Additional observations from a re-analysis of the deposited data

Results flagged for a closer look

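The log2 fold change of INT over F0 differed between females and males at an adjusted p under 0.05 in edgeR's interaction test for the genes below, and each value is the female minus the male log2 fold change. Gut genes differed by 2.86 (CG7542), -3.30 (Mal-A4), -1.85 (Mal-A2), -4.80 (CG6277) and -4.92 (CG6271). CG6277 had a log2 fold change of -4.45 in females and 0.35 in males.

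The genes with the smallest p differed by 3.79 (CG13609), 4.08 (fit), 2.12 (CG32243), 3.20 (CG43965) and 1.87 (CG31205) where the female value was higher. Where it was lower, they differed by -4.27 (CG31148), -3.04 (CG43679), -1.91 (tipE), -1.64 (CDase) and -1.89 (CG9672).

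Genes of the ovary differed by 6.77 (Cp7Fa), 1.83 (aub) and 2.67 (fs(1)M3). The 13 chorion genes summed to 345, 430.0 and 1.79 CPM in F0 males 1, 2 and 3 and to 3.54, 3.51 and 2.37 CPM in INT males, beside the yolk protein sums given above. The part of these 2 founder libraries in the ovary differences and in that of fit was not tested.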

How the results depend on the processing

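Of 89 genes with a printed log2 fold change, 59 were called. Of the 59, 47 stayed called without F0 female 1, 15 without F0 female 2, 59 without F0 female 3, 20 without INT female 1, 11 without INT female 2 and 46 without INT female 3. All of these fits kept the NINT females. With only the 6 compared libraries in the fit, 17 of the 59 stayed called. The 279 calls between INT and F0 females became 949 with DESeq2, 129 with the flight muscle covariate, 166 without the 3 muscle-rich libraries and 32 with only the 6 compared libraries in the fit, and leaving out 1 library gave 30 to 4310. Other settings apart from the replicate block, given below, left 228 to 286. Of the 30 genes not called, the covariate turned the direction of Act57B (0.12), Act79B (0.15), Act87E (0.18), Ca-P60A (0.22), Mlp60A (0.18), Scp1 (0.57), TpnC4 (0.11), sls (0.051) and wupA (0.048), leaving out the muscle-rich libraries that of Ca-P60A (0.028) and Mlp60A (0.22), and keeping only them that of Scp1 (0.33) and Vm26Aa (-0.45). Scp1 and TpnC4 are themselves among the flight muscle markers that supplied the covariate. Leaving out 1 library gave -0.49 to 0.23 for Scp1 and -0.19 to 0.68 for Vm26Aa.

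The 85 calls of the sex difference became 550 with DESeq2 and 28 without the muscle-rich libraries, and leaving out 1 library gave 19 to 2462. The replicate numbers did not pair the libraries (correlations of deviations -0.36, -0.36 and -0.46 for numbers 1, 2 and 3). With the replicate block 80 entries were called in females, 77 of them among the 279, and 43 in the sex difference. The causes were not tested.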

Other observations

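Genes of translation and cell division had mostly small positive differences. Of 85 tested cytosolic ribosomal protein genes edgeR called 0 and DESeq2 called 2, 8 had an unadjusted p under 0.05 and 77 had a log2 fold change above 0, with a median of 0.29, beside 6520 of 13169 entries above 0. They summed to 80142, 107036 and 122044 CPM in F0 and 132181, 129149.9 and 110543 CPM in INT. Of 42 replication and cell cycle genes edgeR and DESeq2 called 0, 1 had an unadjusted p under 0.05 and 40 lay above 0, with a median of 0.33, which was -0.19 without the muscle-rich libraries. Without F0 female 3, 36 of the 42 were called higher, beside 17.1% of all entries. Their sum was 2184, 3114 and 5184 CPM in F0 and 4877, 5049 and 4352 CPM in INT, so that F0 female 3 exceeded every INT library. Of 73 mitochondrial ribosomal protein genes 1 was called higher, mRpL50, beside 1.19% of all entries, and the median was 0.04.

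The learning and memory list and the clock list gave no calls in edgeR's test. DESeq2 called 1 gene in each list. Of 27 learning and memory genes 5 had an unadjusted p under 0.05 and 25 lay below 0 with a median of -0.49, which was -0.04 without the muscle-rich libraries, and the 14 circadian genes, 2 of them with an unadjusted p under 0.05, had a median of -0.12, which was 0.28 without the muscle-rich libraries and 0.04 with the covariate. Without F0 female 3, 15 of the 27 learning and memory genes were called lower, beside 15.1% of all entries. The wing-hair genes of the founder strains were also not called. mwh was at 14.6, 8.67 and 9.52 CPM in F0 and 4.17, 5.02 and 7.11 CPM in INT (log2 fold change -1.004 ± 0.32 (SE), adjusted p = 0.17), without overlap of the groups, and flr was at 62.1, 70.7 and 70.0 CPM in F0 and 72.6, 76.8 and 71.1 CPM in INT (log2 fold change 0.12 ± 0.11 (SE), adjusted p = 0.56). The eye colour gene w was at 17.9, 12.2 and 9.09 CPM in F0 and 8.95, 9.11 and 11.4 CPM in INT (log2 fold change -0.41 ± 0.24 (SE), adjusted p = 0.37), with overlapping groups. TotX, a Turandot stress gene at a low level, was called higher, 1 of 4 tested members of that family, beside 1.19% of all entries.

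The entry SteXh:CG42398 took 10.3%, 7.38% and 5.59% of the counts in F0 females 1, 2 and 3 and 5.48%, 1.59% and 3.19% in INT females 1, 2 and 3, and at most 1.13% in the NINT females.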
